A study of Homo sapiens with 9 samples.

Results

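Kinesins are ATP-driven motor proteins that move along microtubules. The genes described here were chosen by name alone: every gene in the deposited transcript tables whose symbol is KIF followed by a number, with or without a letter, or KIFC1 to KIFC3, which gave 42 of 60966 genes and 411 transcript records, 375 from Ensembl and 36 assembled from the reads. A kinesin motor domain (a Pfam annotation in the tables) was listed for 42 of the 42 genes. The genes were set in 3 classes from textbook knowledge, with earlier results of these data known. There were 13 mitotic kinesins, 15 transport kinesins that carry cargo, and 14 other kinesins, mostly of cilia or of microtubule dynamics. CENPE, a mitotic kinesin without a KIF symbol, is outside the name rule and is given with the partner proteins.

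The study measured polyadenylated RNA by RNA sequencing in H1299, a p53-null line of human non-small cell lung cancer, to find what FIBP acts on. FIBP encodes a protein that binds acidic fibroblast growth factor inside the cell. There were 3 groups of 3 libraries: cells transfected with a non-targeting control (Scramble) and cells transfected with either of 2 siRNAs against FIBP (Si-FIBP#1 and Si-FIBP#2). The series describes the 3 libraries of a group as independent samples, all groups come from the same line, and both siRNA groups share the same Scramble libraries. Values are FPKM, fragments scaled to transcript length and library size, summed over the transcripts of a gene. The spacing of low values gives about 20100000 to 23850000 fragments a library, and 13894 to 14715 genes reached 1 FPKM. FIBP itself stood at 88.38, 79.49 and 77.74 FPKM in the Scramble libraries, 7.49, 7.77 and 4.30 in the Si-FIBP#1 libraries and 7.13, 5.92 and 8.21 in the Si-FIBP#2 libraries, so that about 7.96% and 8.66% of it was left. Of the epithelial markers KRT8 and KRT18 were present and lower with both siRNAs, KRT18 with log2 fold changes of -1.19 and -1.45, while KRT19 and EPCAM stood below 1 FPKM. The mesenchymal markers were present, with fold changes of -0.49 and -0.72 for VIM, 0.12 and -0.49 for FN1 and 0.35 and 0.43 for CDH2. The part of these genes in the results was not tested, and none of the 4 leukocyte, 3 endothelial or 4 fibroblast markers passed the filter on low values.

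Mitotic kinesins build and work the spindle. They slide its microtubules apart or together, trim microtubule ends, push chromosome arms and form the midzone from which cytokinesis is run, and cells make most of them mainly from late S phase to mitosis. Transport kinesins carry vesicles, endosomes, mitochondria or ciliary cargo at all times, through light chains and adaptors that choose the load. Promoters of late cell cycle genes often hold a cell cycle genes homology region (CHR), read by the MuvB complexes, next to CCAAT boxes, read by NF-Y.

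Most mitotic kinesins have a CHR match in a promoter window. RefSeq promoter windows of 250 bases before to 50 bases after each start (build GRCh38.p14) were found for 34 of the 42 genes, and were searched on both strands for the CHR, spelled TTTGAA or TTCGAA, and for the CCAAT box, spelled CCAAT. No CHR match overlapped a CCAAT match in the kinesin windows. A CHR match was present in 11 of 13 mitotic kinesins, in 1 of 11 transport kinesins (KIF5B) and in 1 of 10 other kinesins (KIF24), beside 19.5% of all 27305 genes with a window. CCAAT was found in 11 of 13 mitotic, 4 of 11 transport and 3 of 10 other kinesins, beside 39.7% of all genes. Both motifs stood in the same window in 10 of the 14 windows of mitotic kinesins, each of another gene, and in 6.38% of all 35116 windows. In those 10 windows a CCAAT box lay upstream of the CHR, in 9 of them by at most 50 bases from start to start, and of the 2239 windows of any gene with both motifs 53.4% had that order and 24.2% that spacing as well. KIF4B is a copy of KIF4A and both have a spacing of 24 bases, so they are not independent examples. A match is a description of these letters and not a binding site.

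**Figure D1:**
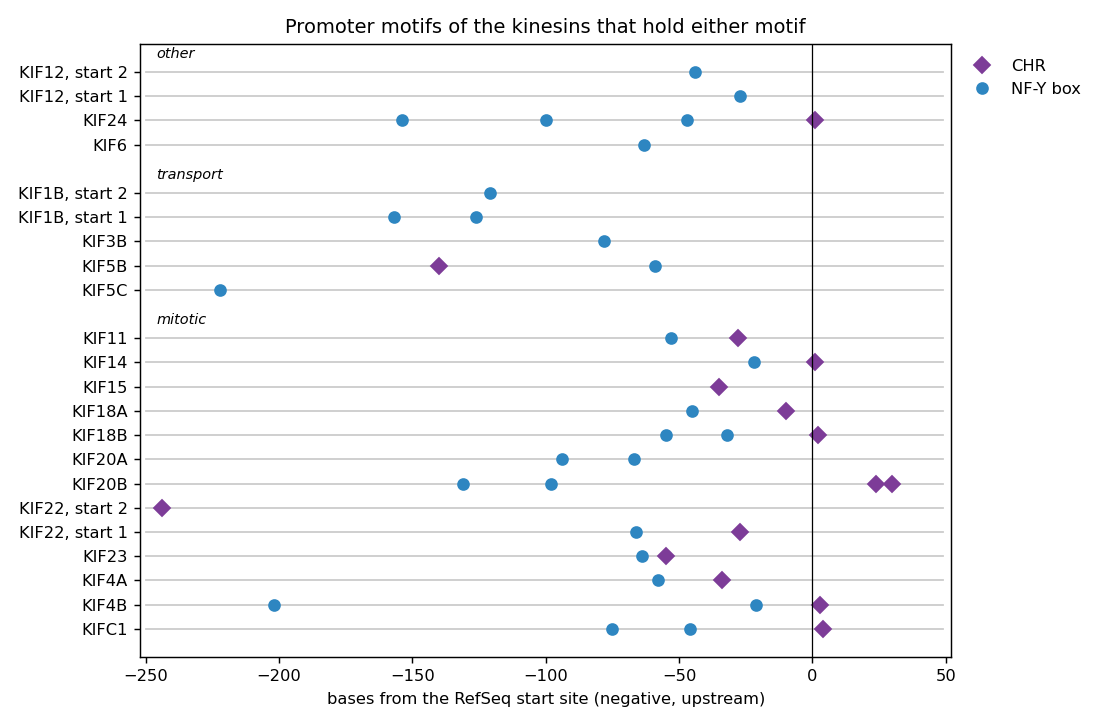
Positions of the CHR (diamonds) and of the CCAAT box, marked NF-Y box (circles), in the RefSeq promoter windows of the kinesins that hold either motif, in bases from the start site, with negative values upstream. Each grey line is 1 window, and genes with several starts have a line for each start that holds a motif. In the mitotic kinesins KIF11, KIF18A, KIF22, KIF23 and KIF4A the circle lies 9 to 39 bases upstream of the diamond.

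The following stretches, 110 bases before the RefSeq start and 30 from it on, show the motifs in 5 mitotic kinesins. Then come KIF20A and KIF2C, the 2 mitotic kinesins without a match to either CHR spelling in the window. KIF24 follows, and then KIF5B and KIF3B as transport kinesins. Other spellings of the CHR were not searched. Capitals mark the CHR and the CCAAT box as they read on the strand shown, where TTCAAA is the reverse complement of the first CHR spelling and ATTGG that of the CCAAT box. The stretches are KIF11 at chr10:92593020-92593159 (+ strand), KIF23 at chr15:69414239-69414378 (+ strand), KIF4A at chrX:70289994-70290133 (+ strand), KIF22 at chr16:29790641-29790780 (+ strand), KIF18A at chr11:28108127-28108266 (- strand), KIF20A at chr5:138179002-138179141 (+ strand), KIF2C at chr1:44739727-44739866 (+ strand), KIF24 at chr9:34329239-34329378 (- strand), KIF5B at chr10:32056396-32056535 (- strand) and KIF3B at chr20:32277541-32277680 (+ strand). KIF5B has its CHR match 140 bases upstream of the start, outside the stretch shown.
KIF11: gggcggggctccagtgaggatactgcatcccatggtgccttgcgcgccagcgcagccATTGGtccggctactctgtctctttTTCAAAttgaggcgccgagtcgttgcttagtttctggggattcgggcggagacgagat
KIF23: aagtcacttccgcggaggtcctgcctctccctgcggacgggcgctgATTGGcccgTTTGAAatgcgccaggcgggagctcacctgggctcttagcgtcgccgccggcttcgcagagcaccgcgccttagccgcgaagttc
KIF4A: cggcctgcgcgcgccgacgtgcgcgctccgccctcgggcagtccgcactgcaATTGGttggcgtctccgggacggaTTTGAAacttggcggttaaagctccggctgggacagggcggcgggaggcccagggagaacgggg
KIF22: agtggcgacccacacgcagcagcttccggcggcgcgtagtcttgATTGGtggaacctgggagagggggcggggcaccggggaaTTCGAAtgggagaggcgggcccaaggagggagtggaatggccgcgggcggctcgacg
KIF18A: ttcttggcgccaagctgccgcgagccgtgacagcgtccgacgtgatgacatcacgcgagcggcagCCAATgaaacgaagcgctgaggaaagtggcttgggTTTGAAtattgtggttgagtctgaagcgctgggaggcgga
KIF20A: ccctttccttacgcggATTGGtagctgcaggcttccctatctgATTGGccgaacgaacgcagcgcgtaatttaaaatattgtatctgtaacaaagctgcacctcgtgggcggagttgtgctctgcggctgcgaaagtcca
KIF2C: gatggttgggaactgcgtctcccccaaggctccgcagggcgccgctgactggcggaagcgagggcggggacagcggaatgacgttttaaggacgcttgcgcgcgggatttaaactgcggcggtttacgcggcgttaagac
KIF24: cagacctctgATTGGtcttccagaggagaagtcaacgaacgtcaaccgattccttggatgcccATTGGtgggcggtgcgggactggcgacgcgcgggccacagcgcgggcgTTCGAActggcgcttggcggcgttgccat
KIF5B: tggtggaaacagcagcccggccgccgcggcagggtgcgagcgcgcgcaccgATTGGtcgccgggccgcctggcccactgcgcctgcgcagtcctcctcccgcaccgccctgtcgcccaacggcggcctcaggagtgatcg
KIF3B: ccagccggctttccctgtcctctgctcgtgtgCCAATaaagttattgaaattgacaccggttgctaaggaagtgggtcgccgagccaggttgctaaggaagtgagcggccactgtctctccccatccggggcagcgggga

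Of the 42 kinesins, 32 reached 1 FPKM in at least 3 libraries and were tested: 12 mitotic (all but KIF4B), 14 transport (all but KIF1A) and 6 other kinesins. The 10 left out never exceeded 1.07 FPKM, a value of KIF1A in 1 Si-FIBP#2 library. Fold changes are differences of log2(FPKM + 1), a scale on which genes of few FPKM seem to change less than they do. They come from 1 limma fit over the 9 libraries, with Benjamini-Hochberg adjustment over 14985 genes, and stand with their standard error, the value for Si-FIBP#1 always before that for Si-FIBP#2. A gene is called lower or higher at an adjusted p below 0.05, and a 2-fold call also needs a fold change over 2.

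All 12 tested mitotic kinesins fell with both siRNAs. With Si-FIBP#1, 12 of 12 were lower, beside 19.9% of all genes tested, and 11 of 12 passed the 2-fold call, beside 3.11%. With Si-FIBP#2, 12 of 12 were lower, beside 17.7%, and 5 of 12 passed the 2-fold call (KIF14, KIF18B, KIF20A, KIF2C and KIFC1), beside 2.13%. KIF15, with a Si-FIBP#2 mean at 48.0% of Scramble, missed this call on the log2(FPKM + 1) scale, at -0.95. Every Si-FIBP#1 library lay below every Scramble library in 12 of 12, beside 24.3% of all genes, and the same held for Si-FIBP#2 in 12 of 12, beside 21.2%. The median log2 fold change of the 12 genes was -1.32 for the first siRNA and -0.94 for the second, beside 0.07 and 0.11 over all genes tested. With KIF2A and KIF2B added to the class, 12 of 13 tested genes were lower with each siRNA, with medians of -1.21 and -0.93. In the mean of both siRNAs against Scramble 10 of 12 passed the 2-fold call, beside 2.45% of all genes. In RNA from whole cultures, fewer cells in mitosis and less RNA per cell cannot be told apart.

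**Figure D2:**
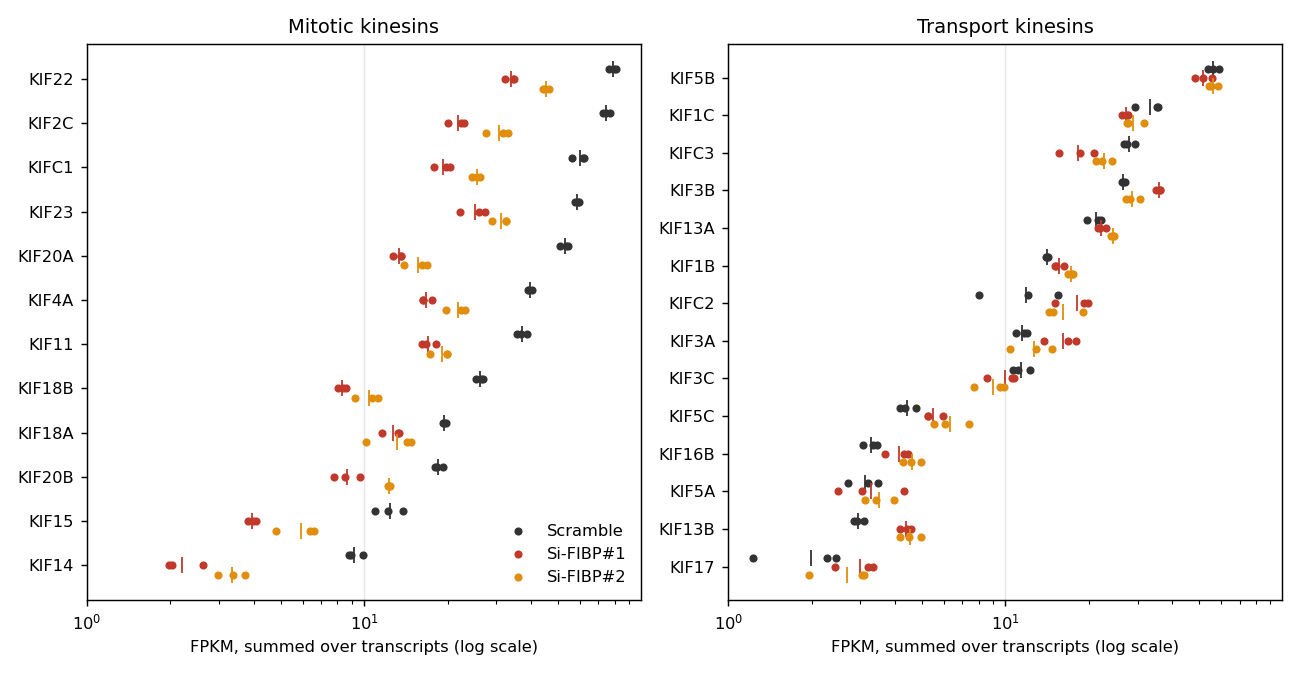
FPKM of each tested mitotic kinesin (left) and transport kinesin (right) on a log scale, with 1 point for each library, 3 libraries a group, and a vertical tick for the group mean. The siRNA points of every mitotic kinesin lie to the left of its Scramble points, whereas those of the transport kinesins KIF5A, KIF5B, KIF17 and KIFC2 overlap with both siRNAs.

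Motors that set up and hold the bipolar spindle fell to between 32.0% and 51.4% of Scramble. KIF11 (ENSG00000138160, chr10:92593286-92655395, + strand in GRCh38, GENCODE 29) encodes Eg5, the motor that slides antiparallel microtubules apart. KIF11 stood at 35.54, 36.74 and 38.74 FPKM in the Scramble libraries, 16.21, 16.68 and 18.14 in the Si-FIBP#1 libraries and 19.95, 17.24 and 19.84 in the Si-FIBP#2 libraries. The siRNA groups overlapped each other and stood far below the control, with log2 fold changes of -1.08 ± 0.07 (adjusted p = 4.16e-06) and -0.93 ± 0.07 (adjusted p = 1.2e-05). KIF15 can stand in for Eg5 in keeping the spindle bipolar, and the Scramble libraries held 13.83, 10.97 and 12.22 FPKM of KIF15, Si-FIBP#1 cells 3.96, 3.81 and 4.08 and Si-FIBP#2 cells 6.39, 4.81 and 6.58. All Si-FIBP#1 values lay below all Si-FIBP#2 values, and both below the control, with log2 fold changes of -1.43 ± 0.12 (adjusted p = 1.28e-05) and -0.95 ± 0.12 (adjusted p = 0.000166). KIFC1, a minus-end motor that crosslinks spindle microtubules and gathers extra centrosomes, was another of the 2-fold calls: KIFC1 stood at 61.51, 56.13 and 62.27 FPKM in the Scramble libraries, 17.88, 19.73 and 20.34 in the Si-FIBP#1 libraries and 26.14, 24.55 and 25.59 in the Si-FIBP#2 libraries. The 3 groups did not overlap, with log2 fold changes of -1.59 ± 0.07 (adjusted p = 4.38e-07) and -1.21 ± 0.07 (adjusted p = 1.59e-06). Of its exonic bases, 12.7% lie over a pseudogene on the opposite strand.

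Among motors that trim microtubule ends, KIF2C and KIF18B had fold changes over 2 with both siRNAs, and KIF18A with neither. KIF2C encodes MCAK, a depolymerase at centromeres (ENSG00000142945, chr1:44739818-44767767, + strand). KIF2C measured 74.37, 72.69 and 76.96 FPKM in Scramble cells, 20.05, 22.26 and 22.96 after Si-FIBP#1 and 33.08, 27.56 and 31.67 after Si-FIBP#2. The groups were separate, in the order Scramble, Si-FIBP#2 and Si-FIBP#1, with log2 fold changes of -1.74 ± 0.08 (adjusted p = 5e-07) and -1.26 ± 0.08 (adjusted p = 2.66e-06). KIF18B limits the length of astral microtubules, and the Scramble libraries held 26.85, 26.43 and 25.31 FPKM of KIF18B, Si-FIBP#1 cells 8.03, 8.61 and 8.36 and Si-FIBP#2 cells 11.26, 9.30 and 10.68. Its groups stood in the same order, with log2 fold changes of -1.54 ± 0.08 (adjusted p = 7.9e-07) and -1.26 ± 0.08 (adjusted p = 2.55e-06). KIF18A, a kinesin-8 like KIF18B, dampens the swings of chromosomes at the metaphase plate and changed least of the tested mitotic kinesins. KIF18A stood at 19.70, 19.27 and 19.39 FPKM in the Scramble libraries, 13.33, 11.64 and 13.24 in the Si-FIBP#1 libraries and 14.79, 10.16 and 14.32 in the Si-FIBP#2 libraries. Here the siRNA groups overlapped each other but not the control, with log2 fold changes of -0.58 ± 0.12 (adjusted p = 0.0037) and -0.55 ± 0.12 (adjusted p = 0.00446). KIF18A was the mitotic kinesin that missed the 2-fold call with Si-FIBP#1.

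The chromosome-bound motors had the highest and the sixth highest control levels of the class. KIF22 (Kid) pushes chromosome arms towards the spindle equator. KIF22 stood at 81.01, 76.73 and 79.97 FPKM in the Scramble libraries, 34.51, 32.10 and 34.62 in the Si-FIBP#1 libraries and 44.28, 45.05 and 46.27 in the Si-FIBP#2 libraries. The spread within groups was small beside the gaps between them, with log2 fold changes of -1.21 ± 0.05 (adjusted p = 4.38e-07) and -0.80 ± 0.05 (adjusted p = 3.48e-06). KIF4A works on chromosome arms and later sets the length of the central spindle, and the Scramble libraries held 40.16, 39.01 and 39.47 FPKM of KIF4A, Si-FIBP#1 cells 16.30, 16.36 and 17.56 and Si-FIBP#2 cells 22.33, 19.74 and 23.10. The groups were again separate, with log2 fold changes of -1.19 ± 0.07 (adjusted p = 1.4e-06) and -0.84 ± 0.07 (adjusted p = 1.25e-05). KIF4B, the intronless copy of KIF4A, stood between 0.11 and 0.31 FPKM, and reads of these near-identical genes could be split between them by the counting. An antisense gene shares 13.01% of the exonic bases of KIF22, and use of strand in the counting is not given in the sources used here.

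Motors of the midzone and of cytokinesis held the largest fall of the family. KIF20A (MKLP2), which brings the chromosomal passenger complex to the central spindle, is ENSG00000112984 at chr5:138178719-138187715. KIF20A measured 53.52, 50.94 and 54.54 FPKM in Scramble cells, 13.63, 12.67 and 13.62 after Si-FIBP#1 and 16.91, 13.96 and 16.22 after Si-FIBP#2. The means were 25.1% and 29.6% of the control, with log2 fold changes of -1.92 ± 0.08 (adjusted p = 3.79e-07) and -1.70 ± 0.08 (adjusted p = 6.69e-07). KIF14, a motor of the midbody, had the lowest level of the tested mitotic kinesins, and the Scramble libraries held 8.82, 8.95 and 9.86 FPKM of KIF14, Si-FIBP#1 cells 1.97, 2.03 and 2.62 and Si-FIBP#2 cells 3.71, 2.96 and 3.36. Its Si-FIBP#1 mean was 23.96% of the control and its Si-FIBP#2 mean 36.3%, with log2 fold changes of -1.68 ± 0.11 (adjusted p = 3.25e-06) and -1.24 ± 0.11 (adjusted p = 2.18e-05). KIF23 (MKLP1) is the motor subunit of centralspindlin. KIF23 stood at 59.51, 59.07 and 57.38 FPKM in the Scramble libraries, 22.19, 25.89 and 27.34 in the Si-FIBP#1 libraries and 32.51, 28.86 and 32.43 in the Si-FIBP#2 libraries. The groups did not overlap, with log2 fold changes of -1.20 ± 0.08 (adjusted p = 3.67e-06) and -0.89 ± 0.08 (adjusted p = 2.37e-05). KIF20B (MPP1) works late in cytokinesis. KIF20B measured 17.99, 18.36 and 19.22 FPKM in Scramble cells, 7.79, 8.53 and 9.69 after Si-FIBP#1 and 12.17, 12.24 and 12.35 after Si-FIBP#2. Its Si-FIBP#2 libraries lay close together, between the other groups, with log2 fold changes of -1.02 ± 0.08 (adjusted p = 8.27e-06) and -0.56 ± 0.08 (adjusted p = 0.000335).

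The fall of the mitotic kinesins was less deep with Si-FIBP#2. Tested as the difference of Si-FIBP#2 from Si-FIBP#1, 9 of 12 were higher with Si-FIBP#2, beside 9.58% of all genes tested, and all 12 differences were positive, while 5.80% of all genes were lower with Si-FIBP#2. In 10 of 12 every Si-FIBP#2 library lay above every Si-FIBP#1 library, beside 20.4% of all genes. The log2 difference was 0.48 ± 0.08 (adjusted p = 0.00396) for KIF2C, 0.48 ± 0.12 (adjusted p = 0.0258) for KIF15, 0.46 ± 0.08 (adjusted p = 0.00536) for KIF20B and 0.41 ± 0.05 (adjusted p = 0.00118) for KIF22. For KIF11, KIF18A and KIF20A it was 0.15 ± 0.07 (adjusted p = 0.209), 0.02 ± 0.12 (adjusted p = 0.927) and 0.22 ± 0.08 (adjusted p = 0.0821), which missed the threshold. The log2 difference of FIBP itself was 0.13 ± 0.18 (adjusted p = 0.686), which missed the threshold too. The count of 9 fell to 5 without Si-FIBP#1 replicate 1, Si-FIBP#1 replicate 2, Si-FIBP#2 replicate 1 or Si-FIBP#2 replicate 3, and the calls of KIF14, KIF15, KIF18B and KIF23 were the ones that missed the threshold without some library. Over 18 alternatives these calls passed in 11 for KIF14, 10 for KIF15, 6 for KIF18B and 9 for KIF23.

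**Figure D3:**
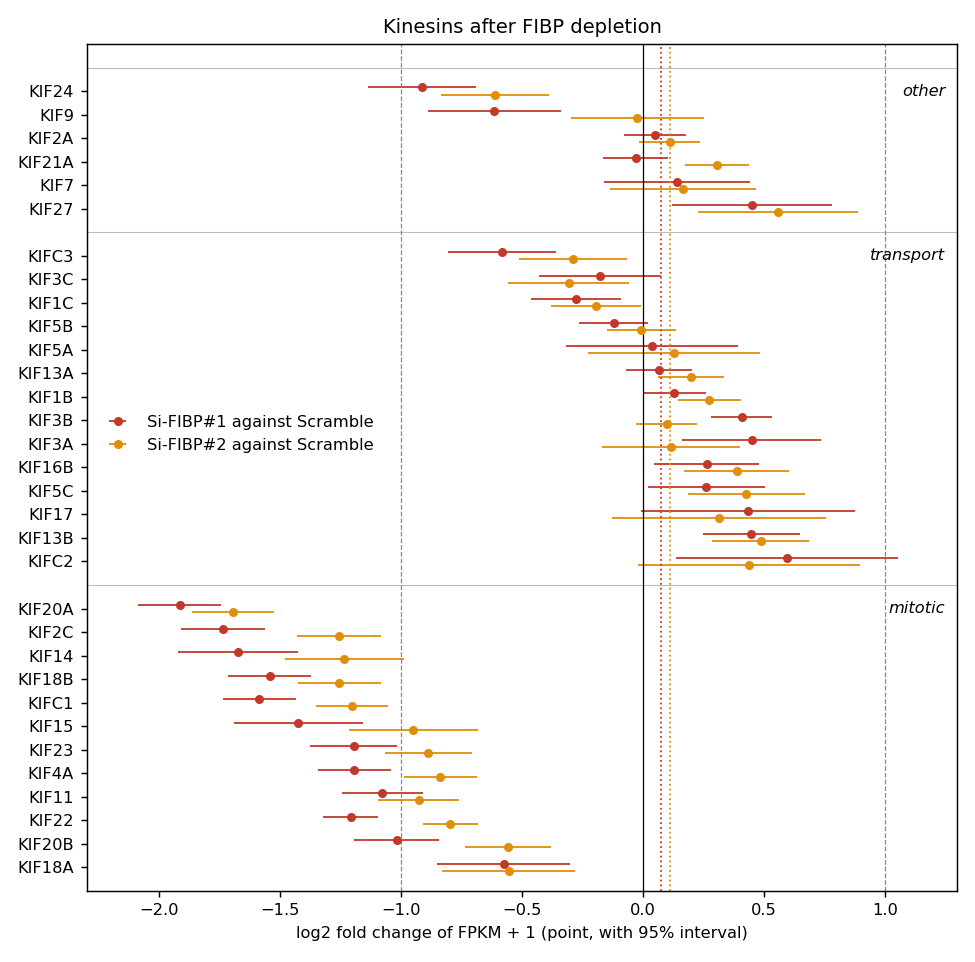
Log2 fold change of FPKM + 1 against Scramble for the 32 tested kinesins, with 95% intervals, for Si-FIBP#1 (red) and Si-FIBP#2 (orange), grouped by class. Dotted lines mark the medians of all 14985 genes tested, 0.07 and 0.11, and dashed lines mark 2-fold. The 12 mitotic kinesins lie between -1.92 and -0.55, and the 14 transport kinesins lie between -0.58 and 0.60.

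The transport kinesins moved little, and in both directions. The log2 fold changes of the 14 tested lay between -0.58 and 0.60, so that none reached the 2-fold call, beside 2.55% of all genes higher and 3.11% lower with Si-FIBP#1, for Si-FIBP#2 2.92% and 2.13%. At an adjusted p below 0.05 alone, 5 of 14 were higher and 2 of 14 lower with Si-FIBP#1, and the same numbers held with Si-FIBP#2. With libraries scaled by their median ratio, 4 of 14 were higher and 3 of 14 lower with either siRNA, and with Ensembl transcripts only, 1 of them (KIF3B) was higher with Si-FIBP#1 and 3 with Si-FIBP#2. Over all genes tested 27.8% were higher and 19.9% lower with Si-FIBP#1, for Si-FIBP#2 31.1% and 17.7%, so that these shares lay near the background. The median log2 fold change of the class was 0.20 for the first siRNA and 0.16 for the second. KIF13B and KIF16B were higher with both siRNAs, the latter with Si-FIBP#1 in 4 of 17 alternatives, and KIFC3 was lower with both. These counts moved with single libraries. The 5 higher with Si-FIBP#1 became 3 without Scramble replicate 2, Scramble replicate 3, Si-FIBP#1 replicate 2 or Si-FIBP#1 replicate 3, and the 2 lower became 1 without Scramble replicate 2, Scramble replicate 3 or Si-FIBP#1 replicate 1. The 2 lower with Si-FIBP#2 became 0 without Scramble replicate 2 or Scramble replicate 3, and 1 or 2 without any other library. Without Scramble replicate 1 or Si-FIBP#2 replicate 3 both of these genes, KIF3C and KIFC3, lost the call, and KIF1C was lower instead.

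Among the conventional kinesins (kinesin-1), the ubiquitous heavy chain KIF5B (ENSG00000170759, chr10:32009010-32056431, - strand) was the most abundant transport kinesin and held 24.5% of the class in Scramble cells. KIF5B stood at 53.96, 56.06 and 58.87 FPKM in the Scramble libraries, 48.16, 51.52 and 55.49 in the Si-FIBP#1 libraries and 54.36, 58.64 and 55.12 in the Si-FIBP#2 libraries. All 3 groups overlapped, with a log2 fold change of -0.12 ± 0.14 (95% interval; adjusted p = 0.145) for Si-FIBP#1 and -0.01 ± 0.14 (adjusted p = 0.945) for Si-FIBP#2. With libraries scaled by their median ratio the Si-FIBP#1 value became -0.18 (adjusted p = 0.0448). KIF5A and KIF5C are the heavy chains best known from neurons. KIF5A measured 3.46, 3.18 and 2.71 FPKM in Scramble cells, 4.32, 3.03 and 2.49 after Si-FIBP#1 and 3.42, 3.11 and 3.97 after Si-FIBP#2. The KIF5A groups overlapped throughout, with log2 fold changes of 0.04 ± 0.16 (adjusted p = 0.864) and 0.13 ± 0.16 (adjusted p = 0.534). For its relative, the Scramble libraries held 4.16, 4.76 and 4.34 FPKM of KIF5C, Si-FIBP#1 cells 5.26, 5.27 and 5.97 and Si-FIBP#2 cells 5.52, 7.37 and 6.07. Every siRNA library exceeded the control, with log2 fold changes of 0.26 ± 0.11 (adjusted p = 0.0707) and 0.43 ± 0.11 (adjusted p = 0.00879), and without Si-FIBP#2 replicate 2 the Si-FIBP#1 value passed as well (adjusted p = 0.0338).

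The kinesin-2 motors carry cargo into cilia and along axons. KIF3A and KIF3B form the heterotrimeric motor with the adaptor KIFAP3. KIF3B stood at 26.40, 26.98 and 26.62 FPKM in the Scramble libraries, 36.06, 35.03 and 36.07 in the Si-FIBP#1 libraries and 28.09, 30.58 and 27.26 in the Si-FIBP#2 libraries. It was higher in every Si-FIBP#1 library and the Si-FIBP#2 group stood just above the control, with log2 fold changes of 0.41 ± 0.06 (adjusted p = 0.000293) and 0.10 ± 0.06 (adjusted p = 0.176). The difference between the siRNAs was -0.31 ± 0.06 (adjusted p = 0.00668), the reverse of the order seen in the mitotic kinesins. KIF3A measured 10.92, 11.68 and 11.96 FPKM in Scramble cells, 16.75, 13.79 and 17.97 after Si-FIBP#1 and 12.90, 14.76 and 10.36 after Si-FIBP#2. It too rose with Si-FIBP#1, with log2 fold changes of 0.45 ± 0.13 (adjusted p = 0.0161) and 0.12 ± 0.13 (adjusted p = 0.487). The Si-FIBP#1 call of KIF3A missed the threshold without Si-FIBP#1 replicate 3 (adjusted p = 0.0609) and with Ensembl transcripts only (0.186). KIF3C, found mainly in neurons, pointed the other way: the Scramble libraries held 11.13, 10.67 and 12.31 FPKM of KIF3C, Si-FIBP#1 cells 10.70, 10.59 and 8.60 and Si-FIBP#2 cells 9.52, 9.86 and 7.70. For KIF3C the log2 fold changes were -0.18 ± 0.11 (adjusted p = 0.218) in Si-FIBP#1 cells and -0.31 ± 0.11 (adjusted p = 0.045) in Si-FIBP#2 cells. The latter call was lost without any 1 of the Scramble libraries, Si-FIBP#1 replicates 1 and 2 or Si-FIBP#2 replicates 1 and 3 (adjusted p from 0.0513 to 0.154). Over 18 alternatives the Si-FIBP#2 call of KIF3C passed in 8, with values from -0.47 to -0.21 and adjusted p from 6.35e-05 to 0.155. The Si-FIBP#1 value passed in 1 of 18 (adjusted p = 0.00125), that with transcripts of at least 1000 nt, which was chosen after seeing the data. Its main transcript, ENST00000264712, had means of 8.18 FPKM in Scramble, 6.88 in Si-FIBP#1 and 5.89 in Si-FIBP#2 cells, which were not tested. KIF17, a motor of dendrites and cilia, had low and scattered values. KIF17 stood at 2.28, 2.45 and 1.23 FPKM in the Scramble libraries, 3.33, 3.19 and 2.42 in the Si-FIBP#1 libraries and 3.08, 1.95 and 3.04 in the Si-FIBP#2 libraries. Its groups overlapped, with log2 fold changes of 0.43 ± 0.20 (adjusted p = 0.0986) and 0.32 ± 0.20 (adjusted p = 0.215).

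Of the 5 tested kinesin-3 carriers, KIF13B and KIF16B were higher with both siRNAs, KIF1B and KIF13A with Si-FIBP#2, and KIF1C was lower with Si-FIBP#1. KIF1B carries mitochondria and synaptic vesicle precursors. KIF1B stood at 14.09, 13.99 and 14.25 FPKM in the Scramble libraries, 15.27, 15.07 and 16.29 in the Si-FIBP#1 libraries and 17.59, 17.37 and 16.83 in the Si-FIBP#2 libraries. The 3 groups stood in order without overlap, with log2 fold changes of 0.13 ± 0.06 (adjusted p = 0.0912) and 0.27 ± 0.06 (adjusted p = 0.00355). With Ensembl transcripts only, KIF1B turned to -0.25 (adjusted p = 0.0386) and -0.52 (adjusted p = 0.000792). KIF13A carries endosomes, and the Scramble libraries held 21.64, 22.09 and 19.74 FPKM of KIF13A, Si-FIBP#1 cells 21.95, 21.56 and 23.09 and Si-FIBP#2 cells 24.54, 24.03 and 24.58. For KIF13A the log2 fold changes were 0.07 ± 0.06 (adjusted p = 0.388) in Si-FIBP#1 cells and 0.20 ± 0.06 (adjusted p = 0.0221) in Si-FIBP#2 cells. The Si-FIBP#2 call was lost with median-ratio scaling (0.10, adjusted p = 0.177), with Ensembl transcripts only (adjusted p = 0.189) and without Scramble replicate 3 (0.0877), Si-FIBP#2 replicate 1 (0.0536) or Si-FIBP#2 replicate 3 (0.0613). KIF13B, a vesicle carrier, rose with both siRNAs. KIF13B measured 2.84, 2.91 and 3.10 FPKM in Scramble cells, 4.18, 4.43 and 4.55 after Si-FIBP#1 and 4.18, 4.96 and 4.48 after Si-FIBP#2. All siRNA libraries exceeded the control, with log2 fold changes of 0.45 ± 0.09 (adjusted p = 0.00267) and 0.49 ± 0.09 (adjusted p = 0.00163). With Ensembl transcripts only, its Si-FIBP#1 call was lost (0.32, adjusted p = 0.0658). KIF16B, which moves early endosomes, was also higher in all siRNA libraries: KIF16B stood at 3.33, 3.44 and 3.07 FPKM in the Scramble libraries, 3.69, 4.44 and 4.30 in the Si-FIBP#1 libraries and 4.27, 4.95 and 4.58 in the Si-FIBP#2 libraries. For KIF16B the log2 fold changes were 0.26 ± 0.10 (adjusted p = 0.047) in Si-FIBP#1 cells and 0.39 ± 0.10 (adjusted p = 0.00828) in Si-FIBP#2 cells, of which the Si-FIBP#1 call was lost without any 1 of the Scramble libraries, Si-FIBP#1 replicates 2 and 3 or Si-FIBP#2 replicates 1 and 3 (adjusted p from 0.0533 to 0.148). In all, this call passed in 4 of 17 alternatives, and was lost also with median-ratio scaling, TPM, no filter, only the groups compared and Ensembl transcripts only (adjusted p from 0.0593 to 0.0956). KIF1C, a vesicle carrier and the second most abundant of the class, measured less with the siRNAs: the Scramble libraries held 29.36, 35.19 and 35.42 FPKM of KIF1C, Si-FIBP#1 cells 26.39, 27.79 and 27.53 and Si-FIBP#2 cells 27.52, 27.77 and 31.49. For KIF1C the log2 fold changes were -0.28 ± 0.08 (adjusted p = 0.0208) in Si-FIBP#1 cells and -0.20 ± 0.08 (adjusted p = 0.0783) in Si-FIBP#2 cells. The Si-FIBP#1 call was lost without Scramble replicate 2 (0.0769), Scramble replicate 3 (0.0771) or Si-FIBP#1 replicate 1 (0.0620), and Si-FIBP#2 passed without Scramble replicate 1 (0.0137) or Si-FIBP#2 replicate 3 (0.0429).

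The minus-end directed kinesins of the kinesin-14 family include the mitotic KIFC1 and 2 members counted with transport. KIFC3 moves vesicles and anchors microtubules at cell junctions. KIFC3 stood at 29.41, 26.68 and 27.38 FPKM in the Scramble libraries, 18.53, 20.86 and 15.62 in the Si-FIBP#1 libraries and 24.26, 21.17 and 22.33 in the Si-FIBP#2 libraries. All siRNA libraries lay below the control, with log2 fold changes of -0.58 ± 0.10 (adjusted p = 0.00101) and -0.29 ± 0.10 (adjusted p = 0.0349). Its Si-FIBP#2 call was lost without any 1 of the Scramble libraries, Si-FIBP#2 replicate 2 or Si-FIBP#2 replicate 3 (adjusted p from 0.0545 to 0.103). KIFC2, a motor of neurons, had the largest SD in FPKM of the class among the Scramble libraries. KIFC2 measured 15.54, 12.09 and 8.06 FPKM in Scramble cells, 19.88, 19.20 and 15.07 after Si-FIBP#1 and 14.33, 14.79 and 19.11 after Si-FIBP#2. For KIFC2 the log2 fold changes were 0.60 ± 0.20 (adjusted p = 0.0366) in Si-FIBP#1 cells and 0.44 ± 0.20 (adjusted p = 0.105) in Si-FIBP#2 cells. The Si-FIBP#1 call was lost without Scramble replicate 2 (0.0644), Scramble replicate 3 (0.107), Si-FIBP#1 replicate 1 (0.105) or Si-FIBP#1 replicate 2 (0.0991), and Si-FIBP#2 passed without Scramble replicate 1 (0.0218). In all, the Si-FIBP#1 call of KIFC2 passed in 12 of 18 alternatives, with adjusted p up to 0.211, and Ensembl transcripts only was among the losses. Of the exonic bases of KIFC2, 17.8% are shared with FOXH1 on the opposite strand. KIF1A, the axonal carrier of synaptic vesicle precursors, stood at 0.01 to 0.17 FPKM in 8 libraries and at 1.07 in Si-FIBP#2 replicate 3.

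Summed over its members, the mitotic class stood above the transport class in all Scramble libraries, below it in all Si-FIBP#1 libraries, and on either side of it with Si-FIBP#2. The 13 mitotic kinesins added up to 493, 476 and 496 FPKM in the Scramble libraries, 176, 180 and 193 in Si-FIBP#1 and 244, 217 and 243 in Si-FIBP#2. The mean of the Si-FIBP#1 group was 37.5% of the control, and that of the Si-FIBP#2 group 48.0%. The 15 transport kinesins added up to 229, 232 and 229 FPKM in Scramble cells, 235, 236 and 236 in Si-FIBP#1 and 234, 241 and 238 in Si-FIBP#2, or 102% and 103% of the control. Mitotic kinesins therefore held 60.9% ± 0.70 (SD, n = 3) of all kinesin FPKM in the control, 36.9% ± 0.66 in Si-FIBP#1 cells and 41.4% ± 1.95 in Si-FIBP#2 cells. The ratio of mitotic to transport FPKM was 2.12 ± 0.07, 0.78 ± 0.04 and 0.99 ± 0.08 in the same order. The other kinesins summed to 84.0 ± 0.29, 77.2 ± 5.73 and 93.8 ± 1.15 FPKM. The classes were set with earlier results of these data known, so these sums are a description with no test.

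**Figure D4:**
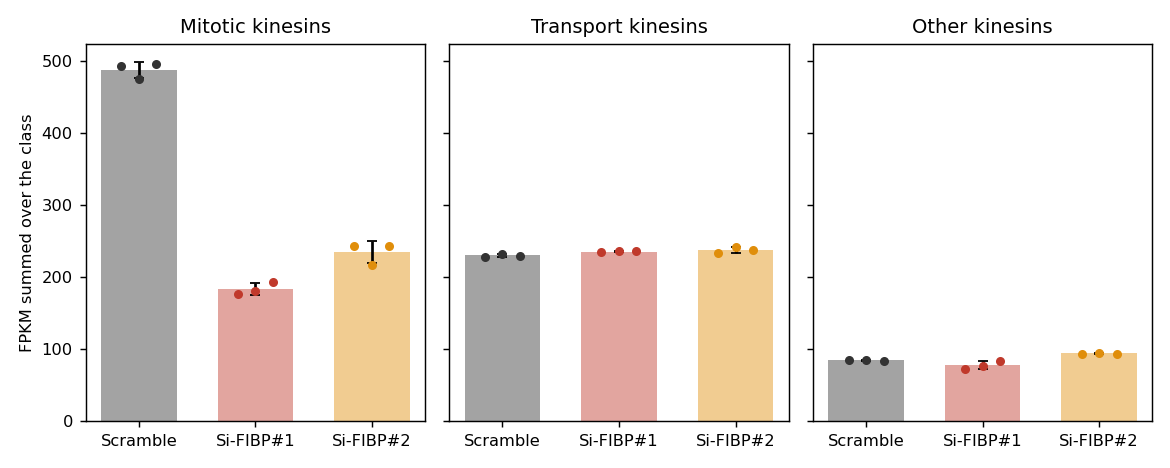
FPKM summed over the 13 mitotic, 15 transport and 14 other kinesins, with bars for the group mean, error bars for the SD and points for the 3 libraries of each group. The mitotic sum lies between 476 and 496 in Scramble and between 176 and 244 in the siRNA libraries, and the transport sum lies between 229 and 241 in all 9.

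Among the 6 other kinesins tested, KIF24 fell and KIF27 rose with both siRNAs. KIF24 is a depolymerase at centrioles that holds back cilium formation, and a gene with a CHR and 3 CCAAT boxes in its promoter window. KIF24 stood at 5.50, 5.01 and 4.82 FPKM in the Scramble libraries, 2.11, 2.33 and 2.29 in the Si-FIBP#1 libraries and 3.01, 2.66 and 3.33 in the Si-FIBP#2 libraries. The 3 groups did not overlap, with log2 fold changes of -0.91 ± 0.10 (adjusted p = 7.19e-05) and -0.61 ± 0.10 (adjusted p = 0.000789), although the Si-FIBP#2 call was lost with Ensembl transcripts only (-0.20, adjusted p = 0.447). KIF27, a relative of KIF7 linked to motile cilia, moved the opposite way: the Scramble libraries held 3.75, 3.18 and 4.07 FPKM of KIF27, Si-FIBP#1 cells 5.44, 4.44 and 6.32 and Si-FIBP#2 cells 5.05, 7.19 and 5.48. For KIF27 the log2 fold changes were 0.45 ± 0.15 (adjusted p = 0.0302) in Si-FIBP#1 cells and 0.56 ± 0.15 (adjusted p = 0.0111) in Si-FIBP#2 cells. With Ensembl transcripts only, the values of KIF27 were 0.04 (adjusted p = 0.890) and 0.25 (0.375), and its Si-FIBP#1 call was also lost without Scramble replicate 1 (0.0568), Scramble replicate 2 (0.101), Si-FIBP#1 replicate 1 (0.0718) or Si-FIBP#1 replicate 3 (0.107). KIF2A, a depolymerase of spindle poles and neurons and the closest relative of KIF2C here, stayed between 26.43 and 29.72 FPKM in the 9 libraries, with log2 fold changes of 0.05 ± 0.06 (adjusted p = 0.506) and 0.11 ± 0.06 (adjusted p = 0.137). Of the exonic bases of KIF2A, 8.97% are shared with IPO11 on the same strand. Antisense genes share 6.77% and 8.58% of those of KIF27.

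In 2 of the other kinesins the siRNAs differed. KIF21A, which restrains microtubule growth at the cell cortex, had log2 fold changes of -0.03 ± 0.06 (adjusted p = 0.697) and 0.30 ± 0.06 (adjusted p = 0.00223) and a difference of 0.34 ± 0.06 (adjusted p = 0.00624) between the siRNAs. KIF9, an axonemal kinesin, fell with Si-FIBP#1, with log2 fold changes of -0.61 ± 0.12 (adjusted p = 0.00258) and -0.02 ± 0.12 (adjusted p = 0.889) and a difference of 0.59 ± 0.12 (adjusted p = 0.012). In transcripts of at least 1000 nt, an alternative chosen after seeing the data, KIF9 changed by -0.21 with Si-FIBP#1 (adjusted p = 0.129) and differed by 0.12 between the siRNAs (adjusted p = 0.487), so that both calls were lost. Of the 6 neuronal markers SYP was lower (-0.68 and -0.55) and SNAP25 higher (0.32 and 0.50) with both siRNAs, and the other 4 stood near 0. Of the 4 multiciliated cell markers DNAH5 and CCDC39 were tested and passed in neither comparison. KIF7, the ciliary tip protein of Hedgehog signalling, stood between 1.04 and 1.73 FPKM and passed in neither comparison. The other 8 members (KIF2B, KIF6, KIF12, KIF19, KIF21B, KIF25, KIF26A and KIF26B) stood between 0 and 0.53 FPKM, and KIF2B was listed at 0 in every library.

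The most abundant Scramble transcript had a lower mean with Si-FIBP#1 in 12 of 12 mitotic kinesins and with Si-FIBP#2 in 12 of 12, and it stayed the most abundant in all groups except in KIF15. In the transport class it was lower in 5 of 14 with Si-FIBP#1 and in 4 of 14 with Si-FIBP#2. The transcript was chosen by its Scramble mean, a choice that by itself favours a lower mean in the other groups. No share over all genes was taken, so these counts are a description. KIF1B changed between transcripts. Its Ensembl transcript ENST00000377093 of 7565 nt stood at 8.74, 8.84 and 8.86 FPKM in Scramble cells, 6.25, 5.72 and 6.65 in Si-FIBP#1 cells and 4.59, 4.64 and 3.91 in Si-FIBP#2 cells. An assembled transcript of 10899 nt went from 4.56, 4.65 and 4.87 FPKM to 7.48, 7.81 and 7.96 and to 10.89, 11.09 and 11.05. The share of the shorter transcript in the gene thus went from 62.5% to 39.9% and 25.4%, with no overlap between groups in either transcript. Transcript estimates divide shared reads by a model, and these shares were not tested.

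The sum of KIF9 came mainly from 1 short transcript, ENST00000432493, of 633 nt and 3 exons (chr3:47275228-47282766 in GENCODE 29), which held 77.8% of the gene in Scramble cells. This transcript stood at 12.77, 14.42 and 13.50 FPKM in Scramble cells, 6.64, 8.87 and 7.96 in Si-FIBP#1 cells and 13.83, 14.51 and 10.21 in Si-FIBP#2 cells. The 3311 nt transcript ENST00000265529 lay between 1.0 and 1.5 FPKM in all 9 libraries. The short transcript shares 0 exonic bases with the opposite-strand genes KIF9-AS1 and KLHL18, of which KIF9-AS1 overlaps 14.9% of the exonic bases of the whole gene. In KIF24 the assembled transcript of 6435 nt went from 2.32 ± 0.16 FPKM (SD, n = 3) to 1.08 ± 0.49 and 0.71 ± 0.37. Transcripts under 1000 nt held at least 20% of the gene in Scramble cells in 5 of the 32 tested kinesins. These were KIF9, KIF27, KIF3A, KIF1C and KIF15. In KIF15 a transcript of 691 nt had means of 3.15, 0.73 and 1.72 FPKM in Scramble, Si-FIBP#1 and Si-FIBP#2 cells. A KIF1C transcript of 726 nt stood at 5.48, 11.75 and 12.04 FPKM in the Scramble libraries, and the 7917 nt transcript at 23.26, 22.47 and 22.73.

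**Figure D5:**
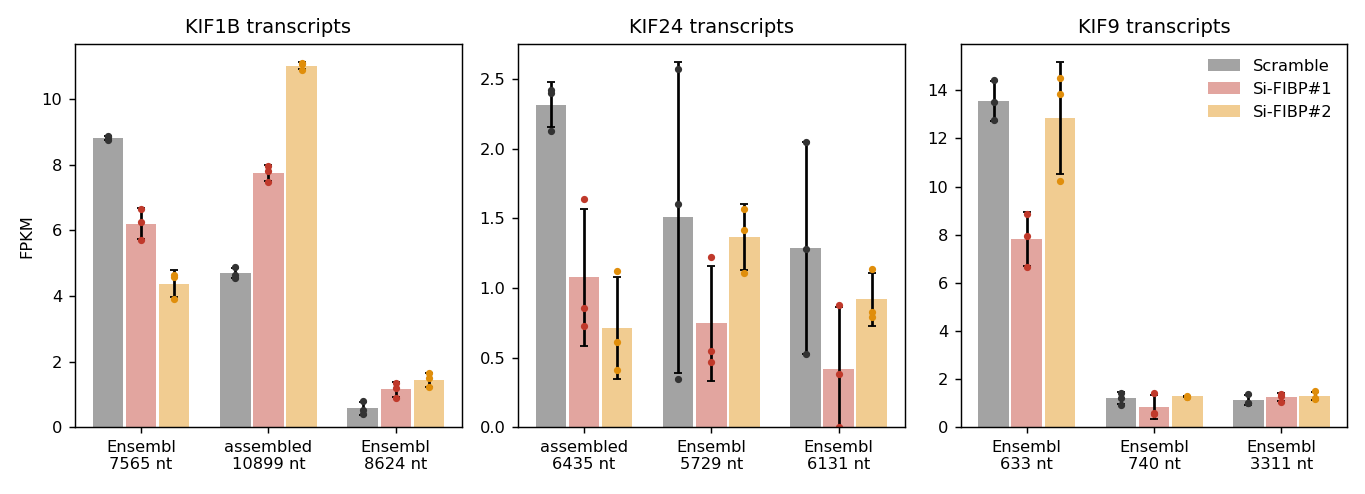
FPKM of the 3 most abundant Scramble transcripts of KIF1B, KIF24 and KIF9, labelled by origin and length, with bars for the group mean, error bars for the SD and points for the 3 libraries. In KIF1B the 7565 nt transcript goes down from 8.81 to 6.21 and 4.38 while the 10899 nt transcript goes up from 4.69 to 7.75 and 11.01.

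RNA of most partners of the mitotic kinesins was lower with both siRNAs. Of 16 partners, 16 were lower with Si-FIBP#1 (15 by the 2-fold call) and 15 with Si-FIBP#2 (6 by the 2-fold call). Over all genes tested, 19.9% and 17.7% were lower, and 3.11% and 2.13% by the 2-fold call. The partners had median log2 fold changes of -1.42 and -0.92. The largest fall in the mean of both siRNAs was that of GTSE1, a microtubule binding protein that inhibits KIF2C, from 31.1 ± 1.92 FPKM (SD, n = 3) to 9.86 ± 0.304 and 10.4 ± 0.695, or -1.56 (adjusted p = 6.18e-07) and -1.49 (9.27e-07) in log2. CENPE, the kinetochore kinesin, went from 11.3 ± 0.175 FPKM to 5.41 ± 0.311 and 8.11 ± 2.24, with -0.94 (adjusted p = 0.000522) and -0.46 (0.0233). CIT, the citron kinase that KIF14 recruits, was the partner that missed the threshold with Si-FIBP#2 (-0.43, adjusted p = 0.0516). Markers of proliferation moved with the mitotic kinesins: 10 of 10 were lower with either siRNA, with medians of -1.504 and -1.245, and CDC20 fell furthest, from 172 ± 7.27 to 45.9 ± 1.94 and 59.3 ± 5.05 FPKM. Summed over the 10 genes, the libraries ranged from 1189 to 1223 FPKM in Scramble, 383 to 418 in Si-FIBP#1 and 456 to 538 in Si-FIBP#2, and none of the 10 was at 0. Their part in the fall of the mitotic kinesins was not tested.

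More partners of the transport kinesins were called higher than lower. Of 19 tested light chains and adaptors, 10 were higher and 2 lower with Si-FIBP#1, and 9 were higher and 1 lower with Si-FIBP#2, with none past the 2-fold call. Over all genes tested, the first siRNA had 27.8% higher and 19.9% lower, the second 31.1% and 17.7%. The medians of the partners were 0.25 and 0.26. KLC3, 1 of the 9 with Si-FIBP#2, reached 1 FPKM in siRNA libraries only and so passed the filter through the groups where it is high, and it was named after its values were seen. By the mean of both siRNAs, KLC2, a light chain of kinesin-1, rose most among those past the threshold with both, from 14.1 ± 0.927 FPKM to 20.6 ± 1.57 and 22.1 ± 1.53 (0.52, adjusted p = 0.000596, and 0.61, 0.000217). None of the 19 was lower with both. KIFAP3, the adaptor of KIF3A and KIF3B, measured 7.36 ± 0.111, 6.87 ± 0.219 and 4.81 ± 0.899 FPKM, and was lower with Si-FIBP#2 (-0.54, adjusted p = 0.00255) but not by test with Si-FIBP#1 (-0.09, 0.524). KIFAP3 was named after its values were seen.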

How the data were processed

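Polyadenylated RNA of 9 H1299 libraries was sequenced from a TruSeq preparation, and the authors deposited 1 table of FPKM per transcript for each library. HISAT2 and StringTie are named in the submitters' processing notes; versions, genome build, annotation release and use of strand are not given in the sources used here. The unit is not named either: FPKM was read from the values, whose plain sums differ between libraries while length-weighted sums are nearly constant. FPKM were summed per gene. Genes that reached 1 FPKM in 3 or more libraries were tested by limma 3.58.1 (R 4.3.3) on log2(FPKM + 1), in 1 fit with a mean-variance trend, with Benjamini-Hochberg adjustment, and called at an adjusted p below 0.05, with or without a fold change over 2. The p-values set the differences between groups against the spread between these libraries. Whether the libraries of a group were separate cultures is not given in the sources used here. The scripts (Python 3.11.15) were tested on simulated data. Gene positions come from GENCODE 29 and promoters from RefSeq, both on GRCh38, which need not be the build of the files, and 311 of the 375 Ensembl transcripts were found in GENCODE 29. Depth was estimated from the spacing of low values and is approximate; 0 pairs of libraries were identical.

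The kinesin classes, partner lists and marker lists (proliferation, epithelial, mesenchymal, leukocyte, endothelial, fibroblast, neuronal and multiciliated) were chosen with earlier results of these data known. Every tested mitotic and transport kinesin is named, as are other kinesins that passed with both siRNAs, and from each partner list CENPE and the largest fall and rise that passed with both. Alternatives changed the scaling, pseudocount, filter, libraries in the fit, transcripts summed, class membership, fold threshold and a replicate term.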

Additional observations from a re-analysis of the deposited data

Results flagged for a closer look

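The siRNAs had unequal effects on 12 of the 32 tested kinesins, by a limma test of the difference itself with Benjamini-Hochberg adjustment over all genes. Of all genes tested, 9.58% were higher and 5.80% lower with Si-FIBP#2 than with Si-FIBP#1. The differences, Si-FIBP#2 minus Si-FIBP#1 on the log2(FPKM + 1) scale with the adjusted p in brackets, follow by class. Among mitotic kinesins, which fell with both, Si-FIBP#2 left more RNA of KIF15 at 0.48 (0.0258), KIFC1 at 0.38 (0.00592), KIF18B at 0.29 (0.0338), KIF2C at 0.48 (0.00396), KIF22 at 0.41 (0.00118), KIF4A at 0.35 (0.00837), KIF14 at 0.44 (0.026), KIF20B at 0.46 (0.00536) and KIF23 at 0.31 (0.0313). The transport kinesin KIF3B was lower with Si-FIBP#2, at -0.31 (0.00668). KIF21A and KIF9 were higher with Si-FIBP#2, at 0.34 (0.00624) and 0.59 (0.012). In transcripts of at least 1000 nt, an alternative chosen after seeing the data, the KIF9 difference was 0.12 (0.487). The log2 difference of FIBP was 0.13 (0.686).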

How the results depend on the processing

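Under 18 alternatives for each tested mitotic kinesin, 216 of 216 values kept the direction and the call against Scramble with Si-FIBP#1, and 216 of 216 did with Si-FIBP#2. Of the transport kinesins, 25 values lost and 5 gained the call with Si-FIBP#1, and 21 lost and 5 gained it with Si-FIBP#2. For the difference between the siRNAs, 36 mitotic values lost the call and 3 gained it. Where a call or a direction changed, the cause was not tested, except that a lower threshold or fewer transcripts act by their construction. KIF7 and KIF17, with means of 1.24 and 1.99 FPKM in Scramble cells, stood near the filter of 1 FPKM.

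With a pseudocount of 0.1, genes called over 2-fold went from 848 to 1498 with Si-FIBP#1, from 757 to 1411 with Si-FIBP#2, from 721 to 1418 for both and from 84 to 172 between the siRNAs. With no fold threshold 7146 and 7309 genes were called with Si-FIBP#1 and Si-FIBP#2, 12 mitotic kinesins among them with Si-FIBP#2. The 5 transport kinesins higher with Si-FIBP#1 became 3 with no filter, 3 with a filter of 5 FPKM and 1 with Ensembl transcripts only, and the 5 with Si-FIBP#2 became 3 with a filter of 5 FPKM and 3 with Ensembl transcripts only. With the filter of 5 FPKM, KIF13B and KIF16B, which stood below it in every library, were no longer tested, so that their calls were not lost by test. With no filter, 0 transport kinesins were lower with Si-FIBP#2. The median of the transport class with Si-FIBP#1 was 0.10 with a filter of 5 FPKM. The 9 mitotic kinesins higher with Si-FIBP#2 than with Si-FIBP#1 became 5 with no filter and 5 with Ensembl transcripts only.

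Directions turned as follows, in log2. With Ensembl transcripts only, KIF1B was -0.25 with Si-FIBP#1, -0.52 with Si-FIBP#2 and -0.28 between the siRNAs, KIF13A was -0.054 with Si-FIBP#1, and KIF3A and KIF5B were -0.033 and 0.011 with Si-FIBP#2. With median-ratio scaling, KIF5A and KIF2A were -0.0058 and -0.0069 with Si-FIBP#1, and KIF18A and KIF7 were -0.015 and -0.00035 between the siRNAs. With transcripts of at least 1000 nt, chosen after seeing the data, KIF17 was 0.13 between the siRNAs.

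Leaving out each library in turn gave 3 to 6 transport kinesins higher and 1 to 2 lower with Si-FIBP#1, 0 to 2 lower with Si-FIBP#2, and 5 to 10 mitotic kinesins higher with Si-FIBP#2 than with Si-FIBP#1. Genes called between the siRNAs ranged from 73 to 128, the latter without Si-FIBP#2 replicate 2. Values that changed sign ranged from -0.13 to 0.17 for KIF5A and from -0.067 to 0.0074 for KIF21A with Si-FIBP#1, and from -0.039 to 0.026 for KIF5B and from -0.070 to 0.067 for KIF9 with Si-FIBP#2. Between the siRNAs they ranged from -0.10 to 0.26 for FIBP, -0.069 to 0.18 for KIF18A, -0.046 to 0.26 for KIF5A, -0.015 to 0.086 for KIF13B, -0.22 to 0.036 for KIF17, -0.042 to 0.10 for KIF7 and -0.021 to 0.21 for KIF27.

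The libraries carry replicate numbers 1 to 3 in every group. Same-numbered libraries deviated from their group means with correlations of -0.057 to 0.103, and libraries of different numbers with -0.142 to 0.049. These values are small and overlap, and they do not settle whether the numbers pair the libraries. With the replicate block, 853, 760, 725 and 88 genes were called with Si-FIBP#1, Si-FIBP#2, both and between the siRNAs. The mitotic counts were 11, 5, 10 and 8, and the transport kinesins higher were 4 and 5. Under this block KIF16B with Si-FIBP#1 (0.26, adjusted p = 0.0520), KIF3C with Si-FIBP#2 (-0.31, 0.0511) and KIF18B between the siRNAs (0.29, 0.0554) lost the call in limma, KIF1C with Si-FIBP#2 gained it (-0.20, 0.0452), and no other kinesin call changed.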

Other observations

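Cytoplasmic dynein, the motor that moves cargo towards microtubule minus ends, and its activator dynactin held more genes called higher than lower. Of 20 genes tested, 10 were higher and 2 lower with Si-FIBP#1, and 10 were higher and 2 lower with Si-FIBP#2, with median log2 fold changes of 0.16 and 0.20. Over all genes tested, the first siRNA had 27.8% higher and 19.9% lower, the second 31.1% and 17.7%. None passed the 2-fold call on the log2(FPKM + 1) scale, which lowers the fold change of genes near 1 FPKM such as DYNC1I1, whose means were 247% and 305% of Scramble. DYNC1I1, an intermediate chain, stood below 1 FPKM in every Scramble library and passed the filter only through the siRNA libraries, so that its place among the genes called higher is no support for a rise of the list. By the mean of both siRNAs it had the largest fold change, from 0.91 ± 0.0265 FPKM (SD, n = 3) to 2.25 ± 0.374 and 2.78 ± 0.789, and the dynein regulator NDE1, which acts at kinetochores and spindle poles, fell most, from 36.1 ± 2.04 to 20.7 ± 0.97 and 22.5 ± 2.1 FPKM. In log2, DYNC1I1 changed by 0.76 (adjusted p = 0.00334) and 0.97 (0.000835), and NDE1 by -0.77 (4.38e-05) and -0.66 (0.000125), by limma with Benjamini-Hochberg adjustment. The other gene below the control with both siRNAs was the light chain DYNLL1, at -0.29 (0.000336) and -0.23 (0.0015), and it was named after its values were seen.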
